A study of Saccharomyces cerevisiae with 11 samples.

Results

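The comparison set yeast grown for 12 h with aureobasidin at the label 200 against yeast grown for 12 h at the label 150. Its members are the 2 samples with those labels, of 11 in the series, and each sample was deposited as 5 barcoded libraries, so that 10 of 55 count columns were compared. The columns were chosen by their titles and not by any measured value, and all 12400 entries of the library were kept. Libraries with the same barcode number were treated as pairs. The cells were Y2H Gold, a Saccharomyces cerevisiae reporter strain, carrying a pool of designed peptides of 20 residues, and they were grown in medium lacking tryptophan. The untreated pool at 0 h and at 12 h is given beside the antibiotic arms as background. The doses are printed without a unit because the sample fields and the growth protocol give different ones. The protocol also describes antibiotic in the medium of every sample, so the groups rest on the titles. Each arm and time is 1 sample, and whether its barcodes grew apart is not stated. All p-values given here thus refer to spread among sub-libraries, and a difference between the labels cannot be told apart from a difference between 2 cultures.

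Transcriptional activation domains are short, often unstructured stretches of a transcription factor that recruit coactivators such as Mediator. Acidic residues and bulky hydrophobic residues, tryptophan and phenylalanine above all, are known to make them work in yeast. In Y2H Gold a working activation domain switches on a reporter gene that gives resistance to aureobasidin A, an inhibitor of sphingolipid synthesis that kills yeast. Cells whose peptide activates therefore keep growing in the antibiotic, and their entry gains share of the pool.

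The libraries of the arm labelled 150 held 1378803 to 2601802 reads, and those of the arm labelled 200 held 1442922 to 2627106. A floor of 3 reads over the 5 libraries of an arm corresponds to 0.323 CPM (reads scaled to a common total of 1000000) with 150 and 0.314 with 200. Barcode identity was a strong feature of the data: over 4848 entries, deviations from the group mean correlated between the arms at 0.940 to 0.953 for the same barcode number and at -0.272 to -0.192 for different numbers. Fits therefore carried the barcode number as a block, and without it the edgeR test called 0 entries in either direction, with 5 entries at an unadjusted p under 0.05 (2363 with the block).

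Peptides with few hydrophobic residues, and entries that encode no peptide at all, held more of the pool with 200 than with 150, and those that held less were mainly substituted forms of tryptophan-aspartate peptides. Inactive entries were thus depleted less in the arm with the higher dose label, the opposite of the order of the labels, and an exchange of labels or material between the arms cannot be told apart from an effect of dose in these files. Of 4848 entries tested, 1172 were higher with 200 (24.2%) and 670 were lower (13.8%) at an adjusted p under 0.05 in edgeR's quasi-likelihood test. Of these, 497 entries rose by at least 2-fold and 0 fell by that much. The median log2 change of all tested entries was 0.16, with quartiles of -0.08 and 0.63. All 5 barcodes moved the same way for 789 of the rises and 489 of the falls.

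The minimum of 10 counts was set on the mean of both arms, so that an entry rare with 150 was tested where it was high with 200. It admitted 579 entries with a mean under 10 counts with 150 and at least 10 with 200, and 272 of the rises, all of at least 2-fold, were among them. Of 4267 entries with a mean of at least 10 counts in both arms, 900 were higher, 225 of them by at least 2-fold, and 670 were lower. With a minimum mean of 50 counts the split was 582 higher and 647 lower of 3070, with a median log2 change of 0.02. Entries were then chosen by a mean of at least 10 counts at 0 h, a setting added after these values had been seen and one that neither arm enters. Of 10433 such entries 1332 were higher (12.8%), 805 of them by at least 2-fold, and 593 were lower (5.68%), 0 by that much.

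The 1172 rises and 670 falls were called with reads scaled to column totals, and the split turned with TMM factors, which moved the entries' log2 changes by a median of -0.25: 406 entries were then higher and 1550 lower, so that rises made up 20.8% of calls in place of 63.6%. All 670 falls were called again with TMM, and 205 of the 1172 rises changed sign. With DESeq2 and its own size factors 366 entries were higher and 1163 lower. Leaving out barcode 3 brought the count of rises to 768.

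Summed over design sets, 96 of 138 sets fitted were higher with 200 (69.6%) and 18 were lower (13%) by the same test. With TMM factors 54 were higher and 46 lower, and with DESeq2's size factors 48 and 66. The 96 higher sets together held 35.1% of reads with 150 and 38.6% with 200, whereas the 18 lower sets held 42.6% and 39.1%. Of the 18 falls, 12 were among the 19 sets of substituted peptides and 4 among the 22 control activation domains fitted. The share of controls that fell was not far from the 13% of all sets. All 18 falls were called again under both scalings, whereas 29 of the 96 rises turned negative with TMM and 38 with DESeq2. Few falls were called in settings without the barcode pairing, where small changes are hard to tell from the spread between barcodes. By the mean over entries of log2 CPM (exact permutation test) 1 set was lower and 57 were higher. With no replicate block 0 were lower and 24 higher. These settings therefore cannot decide whether the small falls hold.

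**Figure D1:**
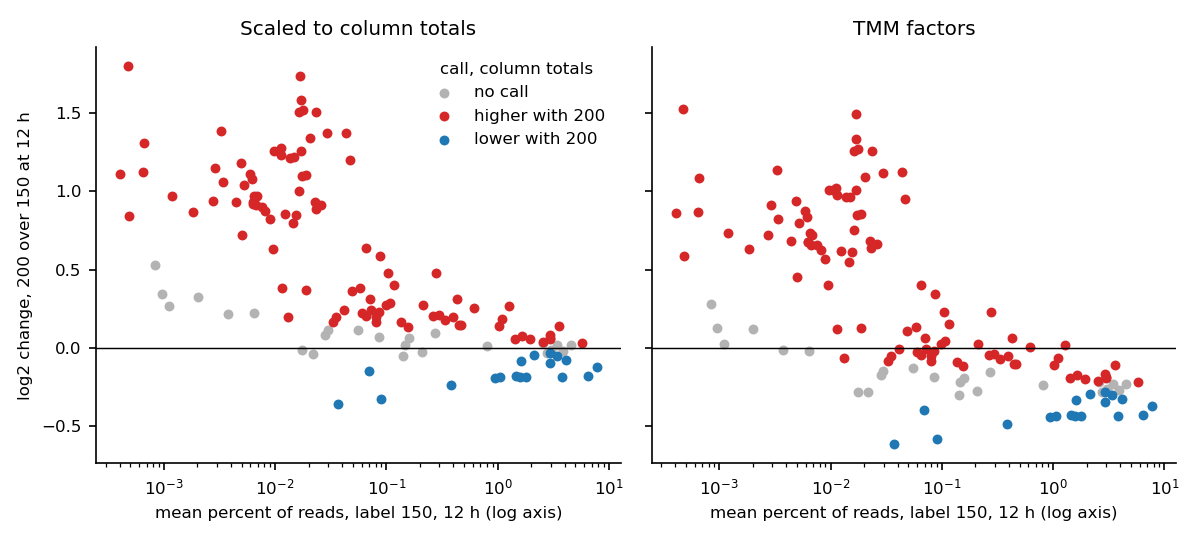
Each point is a design set, placed by its mean percent of reads with the label 150 (log axis) and by its log2 change, 200 over 150 at 12 h, with reads scaled to column totals (left) or with TMM factors (right). Colours give the call with column totals in both panels. Sets with few reads lie highest, and with TMM the 96 higher sets straddle 0 while the 18 lower sets move further below it.

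Entries whose first codon is a stop encode no peptide and serve as the inactive background of the pool. The 153 stop-first entries held 0.0236, 0.0199, 0.0187, 0.0234 and 0.0164% of reads in barcodes 1 to 5 with 150. With 200 they held 0.0589, 0.0572, 0.0410, 0.0538 and 0.0475%. Every library labelled 200 lay above every library labelled 150. The means were 0.0204 ± 0.00307% and 0.0517 ± 0.00741% (SD, n = 5), a ratio of 2.54 (two-sided exact permutation test, p = 0.00794, the smallest this design can give; 0.0159 adjusted over 4 library measures). The exact sign-flip test within barcode numbers cannot pass the threshold with 5 pairs and gave 0.0833 after adjustment. The same entries held 0.400 ± 0.0264% at 0 h and 0.0471 ± 0.00912% in the untreated culture at 12 h, so the share with 200 was near the untreated one and that with 150 was below both.

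More of the library also remained visible with 200. At a common depth, 7057 ± 172 entries had a read with 150 and 9006 ± 151 with 200, with no overlap between the arms (exact permutation p = 0.00794, adjusted 0.0159; sign-flip adjusted 0.0833), and the untreated culture at 12 h had 8649 ± 170. The size of the difference in evenness depended on the index. The effective number of entries (inverse Simpson index) was 769 ± 77.8 with 150 and 801 ± 79.4 with 200, a ratio of 1.04. It was higher in 5 of 5 barcodes, with overlapping arms and an exact permutation p of 0.508, a test that ignores the pairing. Taken as the exponential of Shannon entropy, an alternative outside the 4 library measures, it was 1460 ± 87.0 with 150 and 1611 ± 87.9 with 200. That ratio was 1.10, again with 5 of 5 barcodes higher and overlapping arms (unpaired exact permutation p = 0.0397). The most abundant entry held 0.781 ± 0.159% and 0.792 ± 0.194% of reads.

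Among the peptide designs, those with the fewest activating residues had the largest rises on the log2 scale. The L-neighbors-1 set places 1 short hydrophobic core around leucine in a glycine chain. Its 400 entries held 0.0143, 0.0172, 0.0165, 0.0155 and 0.0205% of reads with 150 and 0.0506, 0.0575, 0.0520, 0.0552 and 0.0650% with 200. The arms did not overlap, and the set rose by 1.74 ± 0.06 on the log2 scale (fit SE; edgeR adjusted p = 1.02e-10). The matching sets around phenylalanine, tyrosine and tryptophan rose by 1.58, 1.52 and 1.37. All 4 sets with 1 core rose, and together they went from 0.0809 ± 0.00589% to 0.234 ± 0.00735%, a ratio of 2.89.

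Peptides with 1 aromatic residue and 1 aspartate rose as well. The 1w1d set, with 1 tryptophan and 1 aspartate among glycines, went from 0.0163 ± 0.00290% to 0.0463 ± 0.00486% (log2 change 1.51 ± 0.08, adjusted p = 3.30e-09), and 1f1d, its phenylalanine form, rose by 1.51 too. With 2 aromatics and 2 aspartates the pooled share went from 0.0901 ± 0.0123% to 0.219 ± 0.0258%, and the phenylalanine set 2f2d rose by 1.37. The 15 entries of wp-template1-2d, a tryptophan-proline template with aspartates, rose by 1.39 ± 0.12 from 0.00328 ± 0.000691% of reads. Each of these rises kept its sign and its call with TMM and with DESeq2. Few entries of such sets reached the minimum of a mean of 10 counts, for example 4 of 380 in 1w1d and 29 of 1600 with 1 core, so the rises are those of summed reads.

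**Figure D2:**
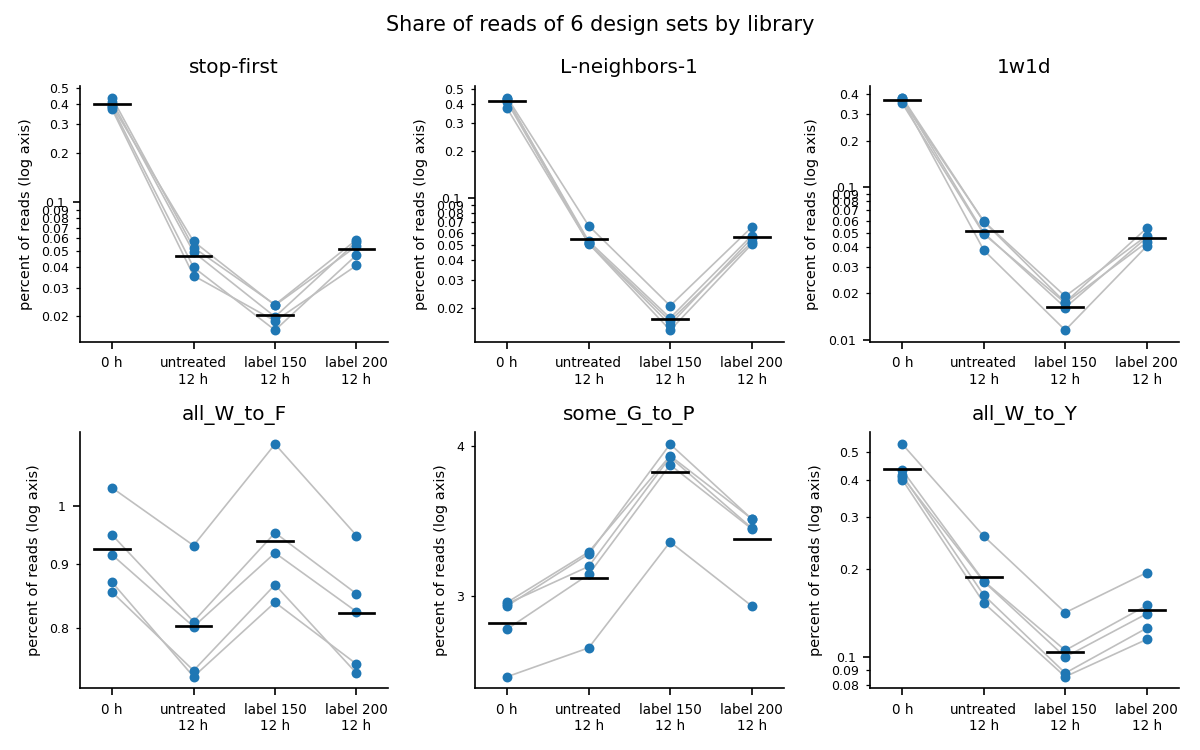
Percent of reads (log axes, each with its own range) of 6 design sets in each library of the untreated pool at 0 h and 12 h and of the arms labelled 150 and 200 at 12 h. Points are the 5 barcodes, grey lines join the same barcode and black bars are means. Stop-first, L-neighbors-1, 1w1d and all_W_to_Y lie lowest with 150, whereas all_W_to_F and some_G_to_P are higher with 150 than with 200 in 5 of 5 barcodes.

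The log2 change was smaller in sets with more cores. As percentage points of the 0 h share, however, the gain was 8.98 with 1 core, 9.11 with 2 and 1.02 with 3. Sets with 2 cores went from 2.59 ± 0.271% to 3.18 ± 0.315%, and all 4 rose, by 0.25 to 0.48 on the log2 scale. With TMM they stayed above 0 but 1 of 4 was called, and with DESeq2 3 of 4 turned negative. Sets with 3 cores held 12.6 ± 0.536% and 12.7 ± 0.426%. Of these, the tryptophan and tyrosine sets were higher (0.03 and 0.18), the phenylalanine set was lower (-0.03) and the leucine set was not called (-0.03); both higher sets turned negative with TMM. Among tryptophan-proline templates 38 of 46 sets rose and 0 fell, beside 96 and 18 of all 138 sets fitted, with a median of 0.51, and 10 of the 38 turned negative with TMM.

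Arginine carries a positive charge, which opposes the acidic character of activation domains. The grid sets that mix arginine with tryptophan, aspartate and glycine were higher in 16 of 16 cases, beside 96 of 138 over all sets, from 0.14 to 1.27, and their pooled share went from 2.65 ± 0.348% to 3.13 ± 0.350%; 6 of the 16 turned negative with TMM. The grid sets without arginine were higher in 12 of 15 cases and lower in 0, beside 96 and 18 of all 138 sets. With TMM 4 of the 12 turned negative. The median log2 change was 0.65 over the sets with arginine and 0.59 over those without, and the difference between the groups was not tested. Within the grid without arginine, set22, with 2 tryptophans and 2 aspartates per peptide, rose by 1.26. By contrast set16, with a mean of 6.56 of each, changed by -0.02 and was not called. The 300 random mixtures of glycine, tryptophan, arginine and aspartate rose by 0.14 with column totals and fell with TMM (-0.11).

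Substituted versions of strong tryptophan-aspartate peptides made up most of the falls. The 11 glycine substitution sets held 41.3 ± 1.31% of reads with 150 and 39.3 ± 1.17% with 200, and 7 of them were lower and 2 higher. In the proline set (some_G_to_P) the share was 3.93, 3.33, 3.91, 4.01 and 3.86% with 150 and 3.48, 2.94, 3.42, 3.48 and 3.41% with 200. It was lower in 5 of 5 barcodes although the arms overlapped, and the fitted change was -0.19 ± 0.01 (adjusted p = 1.68e-09). Methionine (-0.18), asparagine (-0.18) and leucine (-0.12) sets fell too. The leucine set was the largest of the pool, with 7.78 ± 1.26% and 7.16 ± 1.12% of reads. The alanine set, also among the most abundant, fell by 0.07 on the log2 scale, whereas the valine set (0.02) was not called. The cysteine set was the exception with the clearest rise, 0.14 ± 0.01, and it turned to -0.11 with TMM.

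With column totals, replacing tryptophan gave opposite results by residue. Sets in which all or some tryptophans became phenylalanine fell by 0.19 and 0.18 on the log2 scale, and the leucine versions fell by 0.19 each. The fall of all_W_to_L is one of summed reads: by the mean over its entries of log2 CPM the set was higher with 200, by 0.18 (exact permutation test, adjusted p = 0.0207). With tyrosine in place of all tryptophans (all_W_to_Y) the share rose instead, from 0.104 ± 0.0225% to 0.145 ± 0.0305%, a log2 change of 0.48 ± 0.04 (adjusted p = 8.72e-08; 0.23 with TMM, still called). The set with tyrosine in place of some tryptophans (some_W_to_Y) was also higher with column totals. It went from 101% to 107% of its 0 h share, but it turned negative with TMM and with DESeq2. The unsubstituted parents went from 3.39 ± 0.501% to 3.28 ± 0.518% and fell by 0.05.

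Each substituted peptide could also be set against its own parent within a library, which cancels the scaling. The variant's mean log2 CPM minus that of its parent was -4.63 ± 0.204 with 150 and -4.07 ± 0.242 with 200 for all_W_to_Y, a shift of 0.57 ± 0.07 (SD over 5 barcode pairs) with no overlap between the arms (exact permutation p = 0.00794, adjusted 0.151 over 19 series). Valine, cysteine and isoleucine for glycine shifted by 0.32, 0.32 and 0.31. Leucine for all tryptophans shifted by 0.24, up in 5 of 5 barcodes, but by -0.14 with the summed reads of variants and parents. The largest shifts the other way were those of proline (-0.13) and asparagine (-0.11) for glycine and phenylalanine for all tryptophans (-0.10). In 9 series 5 of 5 barcodes moved up and in 6 series 5 of 5 moved down, but the unpaired exact test passed 0 of 19 after adjustment, with 1 series at an unadjusted p under 0.05. A paired limma fit, added after these values had been seen, called 9 series higher and 6 lower. It is a fit over 5 pairs that share the same parents, and it gave every series the same standard error of 0.0213.

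**Figure D3:**
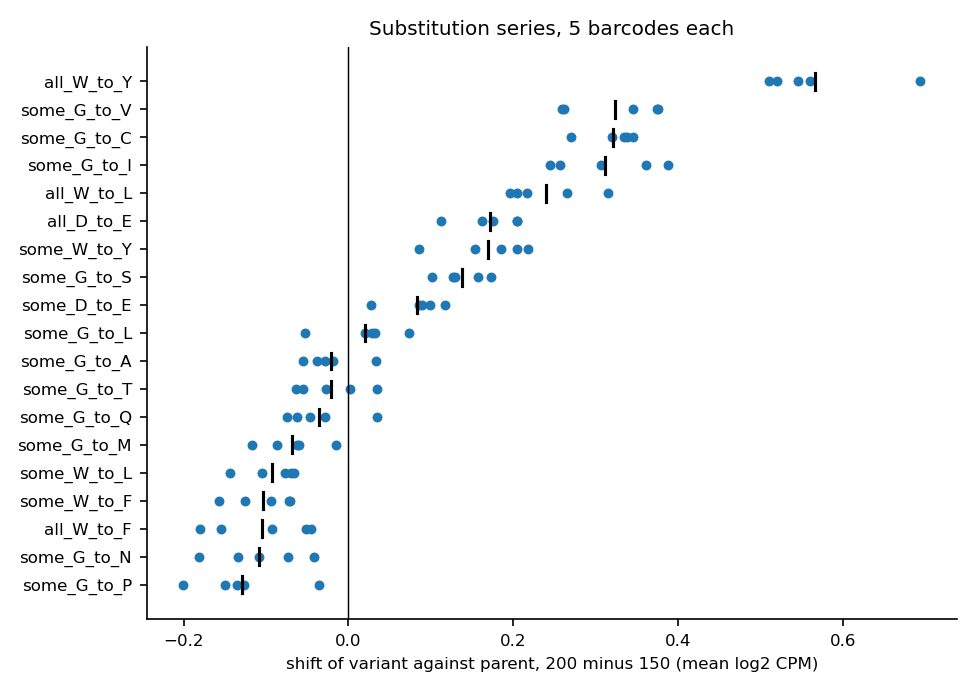
Shift of each substitution series against its parents, label 200 minus label 150 at 12 h, in mean log2 CPM over 100 peptide pairs. Points are the 5 barcodes and black bars their means. Tyrosine in place of all tryptophans lies furthest to the right (0.57), and proline in place of glycines furthest to the left (-0.13).

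Over whole libraries the reads shifted toward glycine and arginine and away from aspartate. The read-weighted mean number of glycines per peptide was 5.68, 5.79, 5.69, 5.72 and 5.69 with 150 and 5.85, 5.95, 5.85, 5.88 and 5.85 with 200. The arms did not overlap (difference 0.163, exact permutation, adjusted p = 0.0349 over 22 features). Arginine rose from 0.0982 ± 0.0112 to 0.128 ± 0.0126 and lysine from 0.00121 to 0.00224, aspartate fell from 5.64 ± 0.0295 to 5.55 ± 0.0237, and the net charge went from -5.73 ± 0.0371 to -5.61 ± 0.0335, each with the same adjusted exact p of 0.0349. Tryptophan averaged 5.60 ± 0.0602 with 150 and 5.55 ± 0.0586 with 200, lower in 5 of 5 barcodes with overlapping arms (adjusted exact p = 0.322). The hydrophobic residues together averaged 7.33 ± 0.0439 and 7.22 ± 0.0463 (adjusted exact p = 0.0582). The sign-flip test passed 0 of 22 features, and the paired limma fit, also added afterwards, called 10 higher and 11 lower. At 0 h the pool averaged 6.87 glycines and 5.07 aspartates, and in the untreated culture at 12 h 5.96 and 5.49.

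**Figure D4:**
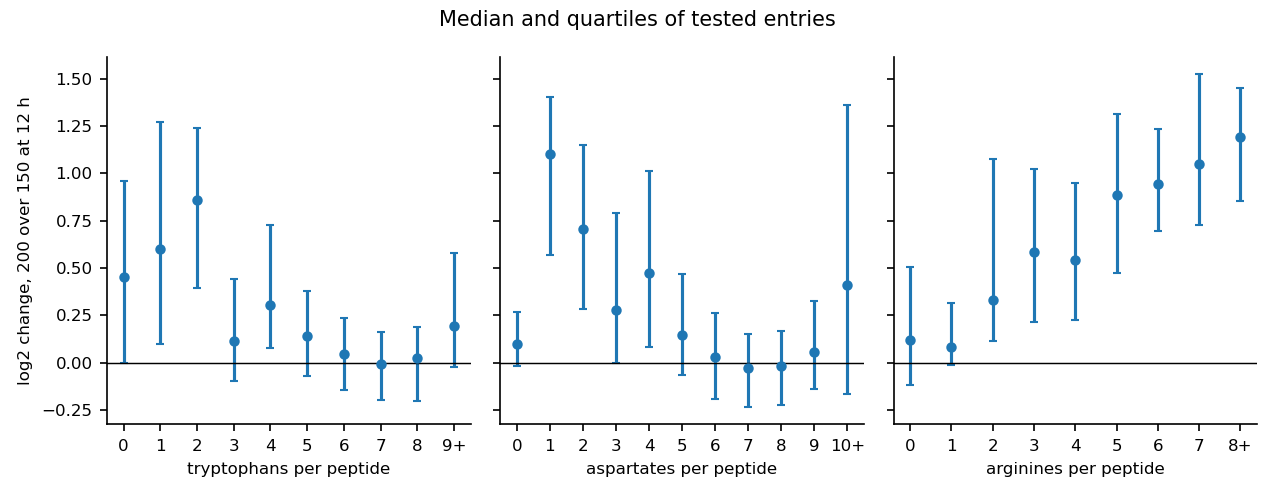
Median (points) and quartiles (bars) of the log2 change, 200 over 150 at 12 h, of tested entries by the number of tryptophans, aspartates and arginines per peptide. Medians are near 0 at 6 to 8 tryptophans and at 6 to 9 aspartates. They are higher again at 9 or more tryptophans (0.20) and 10 or more aspartates (0.41). At the low end they are 0.45 at 0 tryptophans and 0.86 at 2, and 0.10 at 0 aspartates and 1.105 at 1. By arginine they run from 0.09 at 1 to 1.19 at 8 or more.

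By composition, the shares called are read beside the 24.2% higher and 13.8% lower of all tested entries. With 2 tryptophans the median log2 change was 0.86 and 40.5% were higher (225 of 555, 0 lower), and with 7 it was -0.01 (92 higher and 151 lower of 618). At 9 or more tryptophans it was 0.20, with 44 higher and 19 lower of 155. At 10 or more aspartates it was 0.41, with 16 higher and 6 lower of 43. At 0, 3 and 4 tryptophans it was 0.45, 0.12 and 0.31. At 0 aspartates it was 0.10 (11 higher and 1 lower of 95), beside 1.105 at 1 aspartate. The values were thus not ordered by residue number, at the top end or below it. The median was 1.18 with 2 hydrophobic residues in all (213 of 404 higher, 0 lower) and -0.01 with 7 (86 higher and 149 lower of 685). Entries with 3, 4 and 6 arginines were called higher in 27.2, 25.7 and 22% of cases, near the share of all entries, and those with 8 or more in 37.7% (20 of 53, median 1.19). All these values cover entries that passed the count minimum in the compared libraries and not every entry of a composition. Among entries chosen by their 0 h counts, 13.4% of the 2729 with 2 hydrophobic residues were higher, beside 12.8% of all, although their median log2 change was 1.49 beside 0.84. In the same choice 16.4% of the 762 with 7 hydrophobic residues were lower, beside 5.68% of all, and 8.57% of the 350 with 8 or more arginines were higher. Peptides encoded by more than 1 entry gave a measure of precision for those peptides. Over 21 peptides with 73 tested entries the log2 change had a pooled SD of 0.17 within a peptide. The largest range within a peptide was 1.02. The SD over all 4848 tested entries was 0.58, but these are different entries, and the precision of rare entries was not measured.

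The table lists a barcode of 20 bases for each entry, and the barcodes of 2 rises and 2 falls described next are shown to identify them, in lower case with no position marked.
Entry 10262: agccagtcctttccgggagt
Entry 189: tgcatctagtgcacttatcc
Entry 8839: ctcctgctacatcacttgca
Entry 8837: acgctatgcacatggccgag

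Entry 10262 (2 tryptophans, 2 aspartates and 16 glycines) had 6, 1, 7, 3 and 3 reads in barcodes 1 to 5 with 150 and 33, 2, 64, 7 and 20 with 200, a fold of 5.28. Entry 189 (1 tryptophan, 1 aspartate and 18 glycines) had 0, 0, 8, 13 and 2 reads and then 6, 9, 70, 24 and 24. The 8 named rises had fitted folds of 5.28 to 8.83 and came from 7 design sets, with a mean of 1.63 tryptophans. No library labelled 150 held more than 22 reads of any of them. All 8 had a mean of 2.8 to 4.6 counts with 150 and passed the minimum through the arm labelled 200, so their folds are a description and not evidence that rises are of rare entries. When entries were chosen by their 0 h counts, where these 8 had means of 65.4 to 126.2, each was called again (edgeR), with log2 changes of 2.38 to 3.26. That fit used the same libraries in which the 8 had been picked as the largest rises, so it is not independent support. The one with 6 tryptophans, entry 11131, also carried 5 arginines.

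The 8 named falls had a mean of 4.88 tryptophans and 6.13 aspartates, with folds of 0.527 to 0.686. None carried arginine, but 4242 of all 4848 tested entries were peptides without it. Entry 8837 (8 tryptophans, 8 aspartates and 2 prolines) had 276, 239, 653, 423 and 177 reads with 150 and 194, 145, 440, 329 and 109 with 200, which is a fold of 0.661 (adjusted p = 2.71e-09). It fell in 5 of 5 barcodes. With entries chosen by their 0 h counts, the falls of entries 7070 (adjusted p = 0.0647) and 7581 (0.0864) were no longer called by edgeR. Among the 8 most abundant entries, 8839 (5 tryptophans, 5 aspartates, 5 prolines and 5 glycines) had 3361, 5293, 1910, 2398 and 10521 reads with 150 and 2795, 4908, 1637, 2041 and 8310 with 200. Its log2 change was -0.28 ± 0.04. Entries 8145 (-0.27) and 9237 (-0.23) fell as well, whereas 9288, with 10 tryptophans, rose by 0.22 with column totals and stood at -0.03 with TMM. Entries 7968 (0.12) and 8706 (0.09) rose too, each in 5 of 5 barcodes, and stood at -0.12 and -0.15 with TMM. The other 2, 11591 and 8121, were not called.

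Activation domains carried as controls moved in both directions. Their summed share was 1.01 ± 0.0918% with 150 and 0.950 ± 0.0944% with 200, lower in 5 of 5 barcodes. Of 24 control peptides with 4 entries each, 22 were fitted, and 9 were higher and 4 lower with 200, beside 96 and 18 of all 138 sets. The balance turned with the scaling, to 3 higher and 7 lower with TMM and to 2 higher and 10 lower with DESeq2's size factors. The yeast Oaf1 segment, from a factor of fatty acid metabolism, went from 0.383 ± 0.0127% to 0.326 ± 0.0199% (log2 change -0.24 ± 0.03, adjusted p = 3.12e-06), with 4 of 4 entries lower. The plantHSFA2 segment fell by 0.33 on the log2 scale, the doubled minimal VP16 segment, from a herpesvirus activator, by 0.36 and the later of 2 Gal4 segments by 0.15. The rises were mostly of segments with little of the pool, such as a segment of Msn2, a stress-response factor of yeast, at 1.80 from 0.000474% of reads. The rise of KLF4 (0.24) came to -0.01 with TMM and that of AH (0.16) to -0.08.

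The entries' changes at other times were set beside these calls as a description. Among entries that had risen by more than 2 on the log2 scale from 0 h to the mean of both antibiotic arms at 72 h, 131 of 150 were lower with 200 at 12 h and 0 were higher, with a median log2 change of -0.29. Among those that had fallen by more than 6 on that scale, 661 of 1477 were higher and 3 lower, with a median of 0.23. Of those that had fallen by 4 to 6, 487 of 1966 were higher and 25 lower, with a larger median of 0.60. Over all tested entries 24.2% were higher and 13.8% lower. A constant was added to the CPM at both times, so an entry rare at 0 h could not fall by more than 6. With TMM the corresponding counts were 148 lower and 0 higher of 150, and 170 higher and 197 lower of 1477. Those of the 1966 were 236 higher and 199 lower. Entries that had fallen by 2 to 3 on the log2 scale in the untreated culture at 12 h had a median of 1.15 (181 of 375 higher, 0 lower). All these groups hold only entries that passed the count minimum on the mean of both arms. Depleted entries could thus enter through the arm labelled 200, and the 579 that did had a median of 1.29 (272 higher, 0 lower). The groups were not formed again from entries chosen by their 0 h counts, so their rises are a description only. No library at 0 h, untreated or at 72 h entered the comparison at 12 h.

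**Figure D5:**
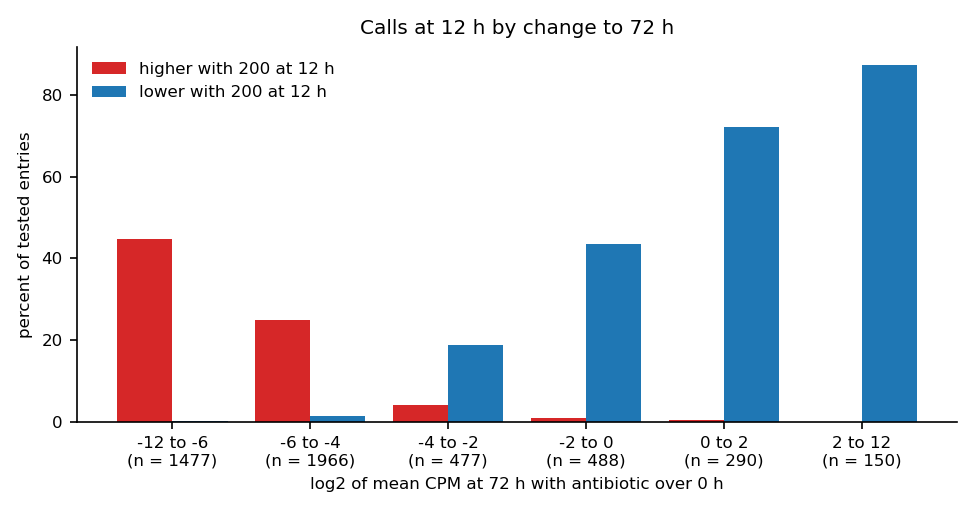
Percent of tested entries called higher (red) or lower (blue) with 200 at 12 h, by the log2 of their mean CPM at 72 h over both antibiotic arms against 0 h, with the number of entries in each group. Falls reach 87.3% among entries that rose by over 2 on the log2 scale, and rises reach 44.8% among those that fell by over 6. Over all tested entries 24.2% were higher and 13.8% lower. Entries rare at 0 h cannot fall by over 6 on this measure.

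Measured against the 0 h pool, the families that had kept 58.5% or less with 150 gained 5.79 to 9.11 percentage points. This measure was chosen after the values were seen. Stop-first entries kept 5.10% of their 0 h share with 150 and 12.9% with 200, a gain of 7.79 ± 1.11 points (SD, n = 5). The gain was 8.98 ± 0.323 with 1 core, 8.06 ± 0.637 with 1 aromatic and 1 aspartate, 9.11 ± 0.452 with 2 cores and 7.70 ± 0.448 for the grid with arginine, although the last 2 had kept 40.6 and 42.6% with 150. It was 5.79 ± 1.42 for the random mixtures, which had kept 58.5%, and 1.02 ± 1.02 with 3 cores, which had kept 93.3%. Sets were also grouped by the share they kept with 150. That share enters the gain as well, with a negative sign, so the gains are not independent of the grouping. The 34 sets that kept under 10% with 150 had a median gain of 8.27 points. Their quartiles were 7.63 and 8.91 and their range was 3.01 to 12.6. The 23 sets that kept 10 to 25% ranged from 1.53 to 12.7. The 11 sets that kept 25 to 50% ranged from 4.37 to 13.9, and the 27 that kept 50 to 75% from -2.06 to 16.1. For the 11 sets that kept 75 to 100% the median was -2.10, with a range of -19.7 to 9.55. For the 32 sets that kept 100% or more the median was -2.29, with quartiles of -13.5 and 3.48. The cause was not tested.

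At 24 h the difference between the labels was larger for the depleted designs. Stop-first entries held 0.00145% of reads with 150 and 0.0558% with 200, and the contrast at 24 h exceeded that at 12 h by 4.06 on the log2 scale (edgeR, adjusted p = 5.23e-06). At 12 h those shares had been 0.0204 and 0.0517%. The libraries labelled 150 held 700917 to 1408129 reads at 24 h, so depleted sets there rest on few reads. The 1w1d set, for example, held 0.00125% of reads in that arm and 0% in its barcode 5. The size of such a change from 12 to 24 h is therefore uncertain. Of 136 sets tested for that change, 61 had a more positive difference at 24 h (44.9%) and 3 a more negative one (2.21%); with TMM the counts were 44 and 38. Of 4023 entries, 264 (6.56%) and 25 (0.621%) did. Those entry counts were fragile: leaving out any of the 5 barcodes brought them to between 9 and 63, and to between 1 and 6, with the lowest values without barcode 3. The phenylalanine set all_W_to_F, lower with 200 at 12 h, held 1.21% with 150 and 1.33% with 200 at 24 h, a change of the difference by 0.33 that turned to -0.16 with TMM.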

How the data were processed

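DNA of pooled yeast was sequenced in 11 samples of 5 barcoded libraries. The authors deposited whole-number read counts for every designed entry and barcode, not normalized, per the file headers. Cutadapt and STAR are named in the submitters' processing notes, and how reads were assigned is not given in the sources used here. Counts were tested with edgeR 4.0.16 in R 4.3.3 (quasi-likelihood, two-sided, column totals, barcode block, mean of at least 10 counts, Benjamini-Hochberg, threshold 0.05), for entries and for sums over sets, of which 37 have under 5 entries. Single values per library used two-sided exact permutation tests of 5 libraries against 5. CPM and shares were computed here from column totals. Alternatives were TMM, DESeq2 1.42.0, other filters, other fits, leaving out barcodes and a limma 3.58.1 fit.

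The named entries are, among those past the threshold and moving alike in 5 of 5 barcodes, the 8 largest rises and falls, and the 8 most abundant whatever their change. Named sets, of those with at least 5 entries, are the 8 largest rises and falls past the threshold, the 6 most abundant, stop-first and the controls. Members and lists were chosen with earlier results of these data known. Barcode numbers pair the libraries because the barcodes were added before cloning, per the labels' protocols, and each library matched its own number best (5 of 5). On simulated counts for the comparison of 200 with 150, 95.7% of tested entries with a 2-fold change and 63.9% of those with a 1.5-fold change were recovered over 4839 entries, and 6.83% of calls were false. For sets, 60% of 1.2-fold and 90% of 1.5-fold changes were recovered, with 6.25% of calls false. For the change from 12 to 24 h, 10% of 1.2-fold and 80% of 1.5-fold changes of sets were recovered with 18.2% of calls false, and 57.9% of 1.5-fold and 82.5% of 2-fold changes of entries with 3.57% false. The simulations used the same assumed spread for every entry and set, not one estimated from these data. Changes were placed in 200 entries or 20 sets, in equal number up and down. These rates therefore do not cover a shift in scaling and are not error rates of the calls made here. PCR reads carry no molecular identifiers, so floors cover counting error only.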

Additional observations from a re-analysis of the deposited data

Results flagged for a closer look

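A library far from the other 4 of its arm, by the ratio of its gap to the arm's whole range, was looked for in 117 groups of 5 libraries and found in 19. The nominal rate of about 1 in 20 holds for independent, normally distributed values, which these are not. Barcodes could differ from the start: entry 8706 had 7410 CPM in barcode 1 at 0 h and 721 to 2190 in the others. The count is therefore a description and was not tested against chance. Among set shares the ratio was 0.817 for 1f1d with 200, 0.745 for wp-template1-2d with 200, and 0.772 and 0.875 for some_G_to_P with 150 and 200, where barcode 2 was the low one in both. For the shift of all_W_to_Y against its parents it was 0.731. The other 14 cases were CPM values of entries. Rare rises gave 1 for entry 9427 with 150, 0.736 for entry 2329 with 150, 0.947 and 0.903 for entry 6003 with 150 and 200, 0.784 for entry 6192 with 150, and 1 and 0.940 for entry 1202 with 150 and 200. Falls gave 0.958 and 0.957 for entry 8571, 0.895 and 0.855 for entry 7581, each with 150 and 200, and 0.775 for entry 10012 with 150. The abundant entry 8706 gave 0.769 and 0.768.

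Of 21 named sets, 16 had a difference between the labels that changed from 12 to 24 h in the edgeR test of the change itself, of which 1, the stop-first set, was named as a background. On the log2 scale the difference at 24 h was more positive by 4.41 for L-neighbors-1, 4.05 for F-neighbors-1, 4.11 for Y-neighbors-1, 3.79 for W-neighbors-1, 4.55 for 1f1d, 3.80 for 1w1d, 3.54 for 2f2d and 4.06 for stop-first. Sets such as 1w1d (0.00125% of reads), 1f1d (0.00107%) and 2f2d (0.00343%) held few reads with 150 at 24 h. The size of these values is therefore uncertain. The sets that had been lower with 200 at 12 h changed by 0.329 (all_W_to_F), 0.282 (all_W_to_L), 0.305 (some_W_to_L), 0.318 (some_W_to_F), 0.255 (some_G_to_P), 0.210 (some_G_to_M), 0.212 (some_G_to_N) and 0.109 (some_G_to_L), and with TMM these 8 changes turned negative.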

How the results depend on the processing

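Of entry counts, rises and falls (1172 and 670) became 406 and 1550 with TMM, 366 and 1163 with DESeq2's size factors, 699 and 400 with all 12 h and 0 h groups in 1 fit, and 0 and 0 with no replicate block; rises were 582 with a minimum mean of 50 counts. Leaving out 1 barcode gave 768 to 997 rises. Set counts (96 and 18) became 54 and 46 with TMM, 48 and 66 with DESeq2, 24 and 0 with no replicate block, and 57 and 1 with the mean over entries of log2 CPM and an exact permutation test. For the change from 12 to 24 h, sets (61 and 3) became 39 and 0 with no replicate block, with 38 more negative under TMM, and entries (264 and 25) became 0 and 0 with no replicate block and 113 and 13 with a minimum mean of 50 counts, with 64 more negative under DESeq2. Leaving out 1 barcode gave 9 to 63 and 1 to 6. Of single values per library, 2 library measures and 5 residue features passed, and 0 did with the replicate block as a sign-flip test, which cannot pass with 5 pairs, or without 1 barcode (0 to 0 in each direction), where fewer libraries limit the exact p. Over the 1000 most abundant entries 0 residue features rose and 0 fell, and without the 100 most abundant entries 3 fell. The replicate block in limma, chosen after seeing the data, gave 9 and 6 substitution series and 10 and 11 residue features.

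Signs turned as follows, and where scaling turned them the shift is in the construction of the factors. With TMM and DESeq2, entry 7968 came to -0.12 and -0.056, 8706 to -0.15 and -0.0902, 11591 to -0.22 and -0.16 and 8121 to -0.24 and -0.17; entry 9288 came to -0.028 with TMM. W-neighbors-3 came to -0.22 and -0.34 and some_G_to_V to -0.23 and -0.36. With TMM the change from 12 to 24 h came to -0.16 for all_W_to_F, -0.20 for all_W_to_L, -0.18 for some_W_to_L, -0.23 for some_G_to_P, -0.17 for some_W_to_F, and -0.27, -0.27 and -0.37 for some_G_to_M, some_G_to_N and some_G_to_L. By the mean over entries, all_W_to_L was 0.18. Without 1 barcode entry 8121 ranged from -0.014 to 0.032, the 24 h change of some_G_to_A from -0.031 to 0.0096, and the share of the most abundant entry from -0.0001003 to 0.0236. Among the 1000 most abundant entries lysine was 0 and proline, glutamine and threonine 0.0006, 0.0006 and 0.0004. Against parents, some_G_to_L was -0.000766 with a prior count of 10, -0.069 with summed reads and -0.00828 in pairs with at least 10 counts, and all_W_to_L was -0.14 with summed reads. The cause was not tested for changes other than those of scaling and of fewer libraries. Entries with few reads limit what can be seen: 7552 of 12400 were below the minimum.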
